A study of Homo sapiens with 78 samples.

Results

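The genes described here are 41 genes of DNA replication and S phase, chosen by name from a gene-level table of RNA sequencing values. They are 41 of the 19652 genes listed, and all 41 were among the 13327 genes that reached 1 TPM (a transcript level scaled for gene length and library) in 3 or more libraries and were tested. Poly(A) RNA came from A549 cells, an established human lung carcinoma line used as a model of the alveolar type II epithelium, with no genetic change in any group. All cells had been grown to confluence and kept in medium without serum overnight, and this also holds for the untreated cells. Cells then received no stimulus (NS), the inflammatory cytokine IL-1β (interleukin-1β) at 1 ng/ml, the glucocorticoid budesonide at 300 nM, or IL-1β-plus-budesonide (cotreatment) at the same concentrations, for 1, 2, 6, 12 or 24 h. Budesonide was dissolved in DMSO, and the labels name no vehicle for NS cells. The 4 treatments at 5 times gave 20 groups and 78 libraries, 4 in each group except NS at 6 h and cotreatment at 12 h, with 3 each. The labels call the samples independent experiments, with 3 at 12 h, where 3 of the 4 groups nevertheless hold 4 libraries, so p-values measure the spread between these libraries. The methods give only an approximate depth common to all libraries, and TPM keeps none, so the reads behind each value are unknown.

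DNA replication runs through a fixed order of protein assemblies. In G1, the origin recognition complex (ORC), CDC6 and CDT1 load the ring-shaped MCM2-7 helicase onto origins. At the start of S phase, MCM10, CDC45 and the GINS complex turn the loaded ring into a moving helicase, and the PCNA clamp, its RFC loader and the polymerases copy the strands. E2F transcription factors and cyclin E-dependent kinase govern entry into S phase, and glucocorticoids are known to slow the growth of many epithelial cells. Many replication genes carry E2F sites near their start, which is why promoters are shown first.

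The promoter table from RefSeq (GRCh38.p14) holds 300 bases for each gene start, 250 before it and 50 after it, and it matched 37 of the 41 genes with 48 promoters. MCM4, MCM5, GINS4 and CCNE2 had no entry. The promoters of CDC6, E2F1, MCM2 and MCM6 are shown as examples of downregulated genes that hold E2F letters. That of CCNE1 is shown since its response stood apart and these letters were not in its window. The examples were picked by letters and response together, and a link between both was not tested. CDC45, MCM10, ASF1B and RRM2, with budesonide changes of -3.40, -3.39, -3.27 and -3.06 on the log2 scale at 24 h, held no E2F letters. Capitals mark matches to TTTCCCGC, TTTCGCGC, TTTGGCGC or TTTGCCGC on either strand, and overlapping matches are merged. Each sequence runs 5′ to 3′ along the strand of the gene.
CDC6 (chr17:40287629-40287928, plus strand): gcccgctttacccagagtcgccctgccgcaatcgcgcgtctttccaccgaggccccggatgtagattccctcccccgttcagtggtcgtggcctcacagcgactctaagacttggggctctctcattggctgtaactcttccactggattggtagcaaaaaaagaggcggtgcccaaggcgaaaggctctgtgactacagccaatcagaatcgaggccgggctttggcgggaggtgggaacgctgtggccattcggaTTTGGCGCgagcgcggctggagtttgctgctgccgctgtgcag
E2F1 (chr20:33686336-33686635, minus strand): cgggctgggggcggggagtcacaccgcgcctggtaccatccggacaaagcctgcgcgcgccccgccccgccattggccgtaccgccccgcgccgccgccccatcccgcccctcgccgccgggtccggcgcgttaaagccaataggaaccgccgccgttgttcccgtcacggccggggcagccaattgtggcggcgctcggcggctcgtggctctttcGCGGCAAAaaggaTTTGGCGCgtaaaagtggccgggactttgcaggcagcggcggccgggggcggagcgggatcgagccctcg
MCM2 (chr3:127598161-127598460, plus strand): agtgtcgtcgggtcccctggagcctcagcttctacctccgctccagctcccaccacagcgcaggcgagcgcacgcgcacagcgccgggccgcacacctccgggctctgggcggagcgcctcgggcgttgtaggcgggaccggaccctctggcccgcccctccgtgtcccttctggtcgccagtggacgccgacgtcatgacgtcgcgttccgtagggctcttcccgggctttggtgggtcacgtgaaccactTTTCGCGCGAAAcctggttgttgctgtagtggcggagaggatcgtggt
MCM6 (chr2:135876394-135876693, minus strand): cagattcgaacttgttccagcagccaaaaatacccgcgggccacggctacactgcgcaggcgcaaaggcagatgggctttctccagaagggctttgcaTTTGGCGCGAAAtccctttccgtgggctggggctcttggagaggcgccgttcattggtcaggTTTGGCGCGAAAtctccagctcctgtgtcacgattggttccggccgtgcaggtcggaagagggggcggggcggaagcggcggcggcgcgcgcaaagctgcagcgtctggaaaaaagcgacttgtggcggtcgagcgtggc
CCNE1 (chr19:29811741-29812040, plus strand): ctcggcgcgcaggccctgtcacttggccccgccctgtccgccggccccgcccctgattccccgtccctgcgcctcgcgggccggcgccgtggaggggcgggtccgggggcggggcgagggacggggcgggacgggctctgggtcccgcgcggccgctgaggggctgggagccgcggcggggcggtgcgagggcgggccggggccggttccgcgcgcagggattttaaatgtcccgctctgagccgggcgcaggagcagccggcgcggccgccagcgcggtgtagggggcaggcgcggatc

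E2F letters were found in the promoters of 20 of the 37 matched replication genes (54.1%), against 6.66% of the 10576 tested genes with a promoter and 3.99% of all 27305 genes with one. Of 56 other replication and S phase genes listed for comparison, 45 had a promoter, and 18 of these (40%) held E2F letters. MCM6 held 4 matches, while E2F1 and MCM2 held 2 each. In MCM6 and MCM2 each match overlapped a match on the other strand, while the matches of E2F1 lay apart. CCAAT boxes (CCAAT on either strand) were in 23 of the 37 genes (62.2%), in 42.9% of the tested genes and in 39.7% of all genes with a promoter. The cell cycle homology letters TTTGAA or TTCGAA, known from promoters of mitosis genes, were in 3 of the 37 replication genes (8.11%). They were in 15.6% of the tested genes and in 19.5% of all genes with a promoter. Of 34 mitosis genes listed for comparison, 27 had a promoter, and these letters were in 21 of them (77.8%), while E2F letters were in 2 (7.41%). CCAAT boxes were also in 21 of these 27 mitosis genes (77.8%), and in 25 of the 45 other replication genes (55.6%). These are counts of letters in a fixed window and do not show binding.

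In untreated cells the replication genes were well expressed. The highest mean levels over the NS groups were those of PCNA, at 304 to 343 TPM, and MCM4, at 232 to 259 TPM, and the lowest was that of the transcription factor E2F2, at 1.99 to 2.49 TPM. Time in culture alone left these levels nearly flat. Between 1 and 24 h in NS cells, CDT1 alone passed an adjusted p of 0.05, with a log2 fold change of -0.56 ± 0.18 (SE, adjusted p = 0.039, limma), where 3.01% of all tested genes were lower at that limit. That single result was lost without any 1 of 7 of the 8 NS libraries compared, the exception being NS 24 h replicate 1.

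Budesonide downregulated all 41 genes at 24 h, by a median of 2.23 on the log2 scale against a median change of -0.01 over all tested genes. A gene is called changed where limma gave an adjusted p of 0.05 or less and a change of 1 or more on the log2 scale in either direction, and 5.7% of tested genes were called lower in this comparison. The changes ran from -3.85 for CDC6 to -1.24 for POLA1, and in all 41 genes the budesonide libraries lay entirely below the NS libraries. This separation was not counted over all tested genes, so it is not a result particular to the 41. All fold changes are on the scale of log2(TPM + 0.5), which understates the change of genes near 1 TPM. In these bulk samples, fewer cells in S phase and less of these transcripts per cell cannot be told apart.

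**Figure D1:**
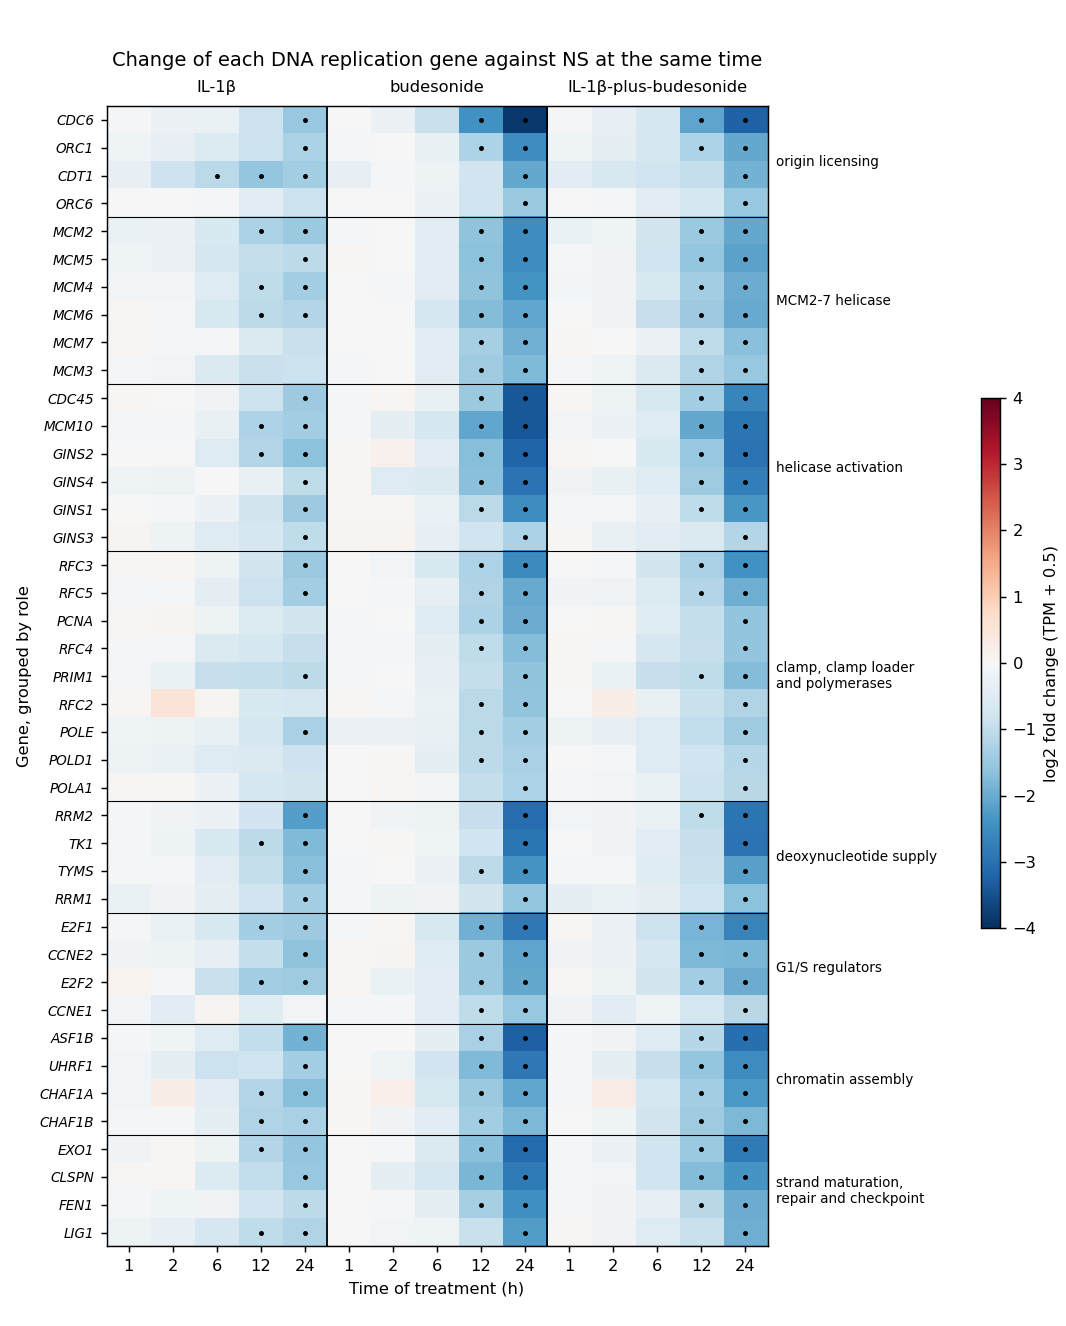
Log2 fold change against NS at the same time (colour, log2 of TPM + 0.5) of the 41 genes in rows, grouped by role, for 3 treatments at 5 times in columns, with a dot where a gene was called changed. Blue deepens from 6 h to 24 h under each treatment, with dots on 41 genes at 24 h for budesonide and for cotreatment and on 32 for IL-1β.

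Origin licensing showed the largest single change. CDC6 (chr17:40287879-40304657), the ATPase that helps load the helicase, stood at 53.1, 54.3, 53.3 and 44.7 TPM in NS replicates 1 to 4 at 24 h and at 3.45, 3.13, 3.48 and 2.37 TPM with budesonide. With IL-1β it stood at 25.4, 13.4, 15.5 and 18.6 TPM, and with cotreatment at 4.91, 5.32, 5.71 and 4.05 TPM. The 4 groups did not overlap. The budesonide change was -3.85 ± 0.14 (SE, adjusted p = 2.1e-33), a 14.4-fold lower value. The other licensing genes were called lower too, with ORC1 at -2.49, CDT1, the helicase loading partner, at -2.05, and the small ORC subunit ORC6 at -1.49.

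The 6 subunits of the MCM2-7 helicase were all called lower by budesonide at 24 h, between -2.48 for MCM2 and -1.77 for MCM3. MCM2 (chr3:127598411-127622436) stood at 28.8, 31.5, 26.6 and 26.9 TPM in NS cells and at 6.24, 4.81, 3.78 and 4.17 TPM with budesonide, a change of -2.48 ± 0.14 (adjusted p = 1.6e-23). IL-1β libraries held 13.1, 10.1, 8.06 and 8.94 TPM, all below NS and above budesonide. Cotreated libraries, at 7.87, 6.45, 5.43 and 6.55 TPM, overlapped the budesonide libraries.

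Helicase activation genes were called lower in all 6 cases, with a median of -3.08. CDC45 (chr22:19479466-19520612), a part of the moving helicase, stood at 19.9, 21.3, 18.6 and 15.7 TPM in NS cells and at 1.46, 1.74, 1.26 and 0.939 TPM with budesonide. It changed by -3.40 ± 0.18 (adjusted p = 8.4e-25). Under IL-1β it spread widely, at 8.56, 9.80, 3.22 and 6.43 TPM, and the lowest of these lay below the highest cotreated library at 3.28 TPM. MCM10, a factor that helps activate the helicase, fell by 3.39, and the GINS subunits GINS2, GINS4 and GINS1 by 3.21, 2.96 and 2.49. GINS3, of the same complex, fell by 1.28.

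The clamp, its loader and the polymerases formed the group with the smallest median, -1.62 over 9 genes, all called lower. RFC3 (chr13:33818149-33977377), a subunit of the clamp loader, led it, at 22.7, 25.2, 23.3 and 21.7 TPM in NS cells and 3.22, 4.37, 3.39 and 3.34 TPM with budesonide. Its change was -2.55 ± 0.10 (adjusted p = 4.9e-31), and IL-1β gave 9.03, 7.19, 7.60 and 8.26 TPM, all between the NS and the budesonide libraries. Cotreated libraries, at 4.29, 3.75, 4.26 and 3.29 TPM, overlapped those with budesonide. PCNA, the clamp itself, fell from 343 ± 8.84 to 87.5 ± 8.99 TPM (SD, n = 4), a change of -1.97. The catalytic polymerase subunits POLE, POLD1 and POLA1 fell by 1.35, 1.31 and 1.24, and the primase PRIM1 by 1.62.

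Enzymes of deoxynucleotide supply were all 4 called lower. RRM2 (chr2:10122568-10211010), the S phase subunit of ribonucleotide reductase, stood at 130, 123, 106 and 139.9 TPM in NS cells, and at 17.2, 16.2, 13.1 and 12.0 TPM with budesonide. It changed by -3.06 ± 0.22 (adjusted p = 5.0e-19). IL-1β gave 43.4, 21.5, 13.8 and 38.6 TPM, and its lowest library fell within the budesonide range and below all cotreated libraries, at 17.7, 16.8, 14.5 and 15.5 TPM. Thymidine kinase TK1 fell by 2.91 and thymidylate synthase TYMS by 2.36, while RRM1, the large reductase subunit, fell by 1.54.

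The regulators of S phase entry were called lower in all 4 cases. E2F1 (chr20:33675477-33686385), a transcription factor that activates many of the genes above, stood at 16.5, 17.5, 16.1 and 14.1 TPM in NS cells and 1.64, 1.74, 1.69 and 1.95 TPM with budesonide. The change was -2.87 ± 0.12 (adjusted p = 5.0e-30). IL-1β libraries held 6.28, 6.13, 4.29 and 5.49 TPM, apart from all other groups, and cotreated libraries held 2.52, 2.21, 1.58 and 2.11 TPM, overlapping those with budesonide. E2F2, of the same family, fell by 2.03 and the cyclins CCNE2 and CCNE1 by 2.12 and 1.52.

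Histone chaperones and chromatin factors, 4 genes, fell by a median of 2.46. ASF1B (chr19:14119512-14136589), which hands new histones to the assembly factor, stood at 21.2, 22.0, 21.0 and 18.4 TPM in NS cells and at 1.32, 2.16, 1.58 and 1.79 TPM with budesonide. It changed by -3.27 ± 0.14 (adjusted p = 6.3e-30). With IL-1β it held 6.52, 5.81, 3.70 and 5.06 TPM, again apart from the other groups, and with cotreatment 2.59, 2.75, 1.58 and 1.68 TPM, within or just above the budesonide range. UHRF1, a factor for copying DNA methylation, fell by 2.85, and the assembly factor subunits CHAF1A and CHAF1B by 2.07 and 1.81. For UHRF1, 27% of the 31-base words of its transcripts were shared with another annotated gene, so its reads could be split between genes. The next largest shares among the replication genes were those of PRIM1 at 21%, CHAF1B at 14.9% and ORC6 at 14.1%, with the same limit.

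Genes of strand maturation, repair and the checkpoint, again 4 of 4, were called lower. EXO1 (chr1:241847986-241889939), an exonuclease of mismatch repair and end resection, stood at 19.3, 19.0, 15.4 and 19.0 TPM in NS cells and 1.44, 1.63, 1.56 and 2.06 TPM with budesonide. The change was -3.11 ± 0.17 (adjusted p = 5.0e-24). IL-1β gave a wide spread of 8.42, 5.06, 3.42 and 7.81 TPM, all above the cotreated libraries at 3.14, 2.35, 1.46 and 1.77 TPM, which overlapped those with budesonide. CLSPN, an adaptor of the replication checkpoint, fell by 2.83, the flap nuclease FEN1 by 2.46 and the ligase LIG1 by 2.23.

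**Figure D2:**
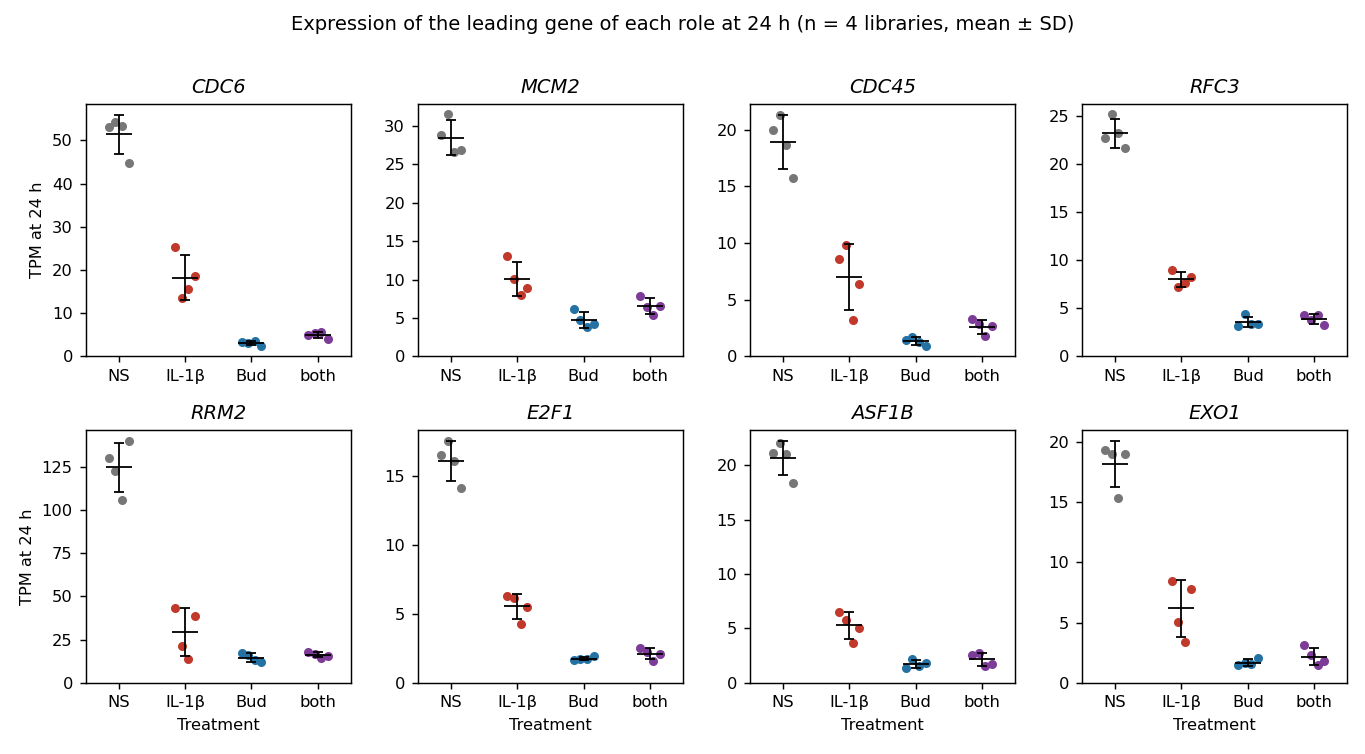
TPM at 24 h in each library (points) with the mean and SD (bars) for the gene with the largest budesonide change in each of 8 roles, by treatment, 4 libraries each, where Bud is budesonide and both is cotreatment. NS libraries stand highest in all 8 panels and the mean of the IL-1β libraries second, with the lowest IL-1β library inside or below the cotreated range for CDC45 and RRM2.

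IL-1β alone downregulated the same pathway to a lesser extent. At 24 h it called 32 of the 41 genes lower (4.31% of tested genes), with a median of -1.37, and 40 were lower at an adjusted p of at most 0.05 alone (18.5% of tested genes). The largest changes were those of RRM2 at -2.20 ± 0.22, ASF1B at -1.90 ± 0.14, TK1 at -1.77 ± 0.16, CHAF1A at -1.70 ± 0.15 and TYMS at -1.66 ± 0.12 (adjusted p from 1.7e-18 to 5.7e-13). Of these, 3 act in deoxynucleotide supply and 2 in chromatin assembly. The smallest were those of CCNE1 at -0.12, RFC2 at -0.68, POLA1 at -0.74, PCNA at -0.74 and POLD1 at -0.84.

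CCNE1, which encodes cyclin E1, was the only member that IL-1β did not lower at 24 h by the adjusted p (-0.12 ± 0.11, adjusted p = 0.45, 95% interval -0.35 to 0.11). Its IL-1β libraries held 12.9, 13.6, 10.3 and 13.1 TPM against 14.0, 14.4, 12.3 and 13.5 TPM in NS cells, and the ranges overlapped. With budesonide it held 4.13, 5.20, 4.73 and 3.68 TPM, and with cotreatment 5.64, 7.76, 5.27 and 5.42 TPM. At 12 h its IL-1β change had been -0.50 (adjusted p = 0.00031). CCNE2, the other cyclin E gene, fell by 1.62 with IL-1β at 24 h.

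Cotreatment called all 41 genes lower at 24 h (5.73% of tested genes), with a median of -1.99 and changes from -3.24 for CDC6 to -1.11 for POLA1. After CDC6 came ASF1B at -3.02, GINS2 at -2.94, TK1 at -2.94, MCM10 at -2.93, RRM2 at -2.91, EXO1 at -2.83 and GINS4 at -2.75. Both comparisons use the same NS libraries, so the values for single genes are given side by side. ASF1B changed by -3.02 with cotreatment and -3.27 with budesonide, RRM2 by -2.91 and -3.06, and PRIM1 by -1.74 and -1.62. The mean TPM at 24 h ran NS, IL-1β, cotreatment, budesonide from highest to lowest in 34 genes, and in the other 7 budesonide stood above cotreatment.

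**Figure D3:**
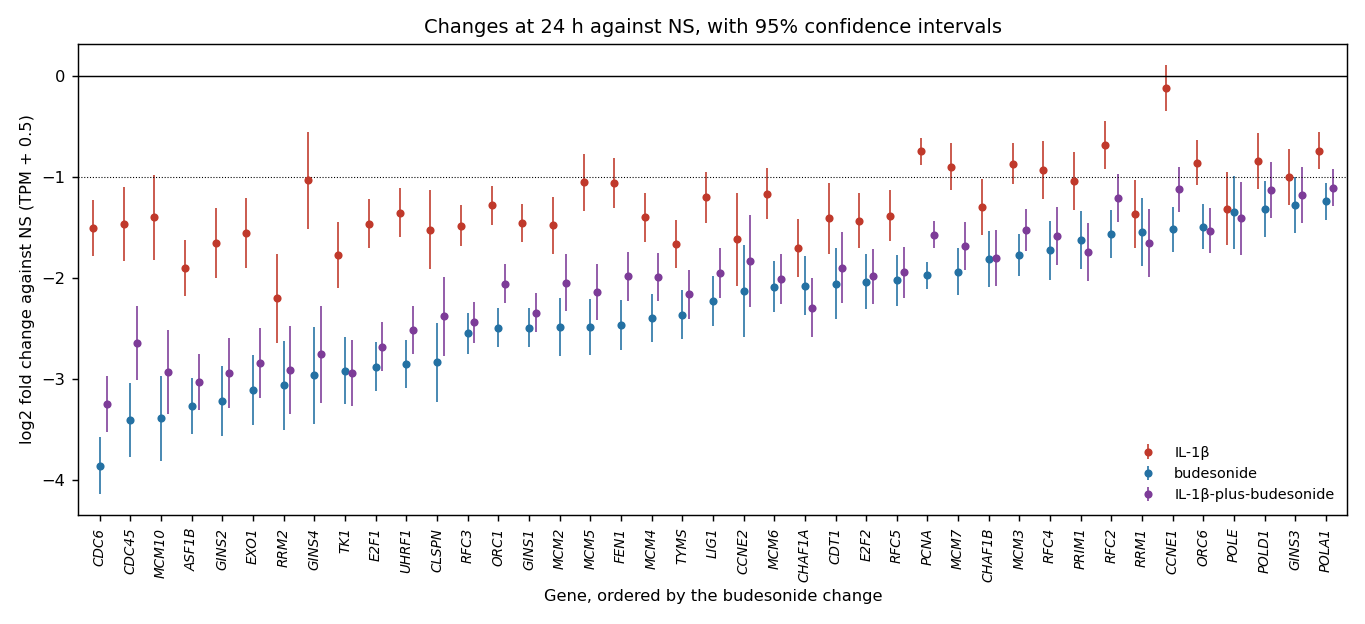
Log2 fold change against NS at 24 h (points, log2 of TPM + 0.5) with 95% confidence intervals (lines) for the 41 genes, ordered by the budesonide change, with a dotted line at -1. Budesonide and cotreatment points lie below -1 in all 41 genes, IL-1β points lie above both in all 41, by the least at POLE, and CCNE1 has the IL-1β point nearest to 0.

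Direct comparison of the treatments at 24 h separated IL-1β from both groups with budesonide. Against IL-1β, budesonide called 21 of the 41 genes lower (6.17% of tested genes), and 37 passed the adjusted p alone (23.2% of tested genes). CDC6 differed most, by -2.35 ± 0.14, followed by MCM10 at -1.99, CDC45 at -1.94, GINS4 at -1.93, GINS2 at -1.56, EXO1 at -1.55, UHRF1 at -1.50 and MCM5 at -1.43. Of these 8 genes, 4 belong to helicase activation. POLE, RRM1, GINS3 and CCNE2 did not pass, with a difference for POLE of -0.04 ± 0.18 (95% interval -0.40 to 0.32). The call of MCM2, at -1.01, lay at the limit and was lost under several alternatives, including a fit without IL-1β 24 h replicate 1 (-0.88).

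Cotreatment against IL-1β called 12 genes lower (3.52% of tested genes), and 36 passed the adjusted p alone (18.6% of tested genes). The leading differences were those of CDC6 at -1.74 ± 0.14, GINS4 at -1.72, MCM10 at -1.53, GINS2 at -1.29, EXO1 at -1.28, E2F1 at -1.21, CDC45 at -1.18 and TK1 at -1.17. Without IL-1β 24 h replicate 2, whose values over all genes stood apart from its group, the CDC45 difference was -0.99 and its call was lost.

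Against budesonide, cotreatment called 0 of the 41 genes by limma at 24 h, with 16 at an unadjusted p under 0.05 in either direction. That unadjusted count has no share of all tested genes beside it and is not read as a result. By the adjusted p alone, 9 genes were higher with cotreatment (5.67% of tested genes), and 5 without cotreatment 24 h replicate 2. CDC45 was 0.76 ± 0.18 higher (adjusted p = 0.0020), CDC6 0.61 ± 0.14, FEN1 0.48 ± 0.12 and MCM2 0.44 ± 0.14 higher, and the other 5 were ORC1, MCM4, PCNA, CCNE1 and RFC2. For RRM2 the difference was 0.15 (95% interval -0.29 to 0.59).

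The cotreatment change was smaller than the sum of both single changes in all 41 genes at 24 h. This pattern was tested as an interaction on the log2 scale, where adding changes means multiplying folds. The interaction was called higher than 0 in 37 genes (3.11% of tested genes), and all 41 passed the adjusted p (8.07% of tested genes), with a median of 1.48. For RRM2 the single changes summed to -5.26, cotreatment gave -2.91, and the interaction was 2.35 ± 0.31 (adjusted p = 1.7e-08). CDC45, ASF1B and CDC6 followed, at 2.22, 2.14 and 2.11, then CLSPN at 1.98, GINS2 at 1.92, MCM2 at 1.92 and CCNE2 at 1.91. The 4 genes below the limit of 1 were CCNE1 at 0.52, ORC6 at 0.82, POLA1 at 0.87 and PRIM1 at 0.91. For 3 genes, E2F2, CLSPN and MCM10, the single changes summed to less than a level of 0 TPM would give with the pseudocount, so part of their interaction was fixed in advance. Others came close to that lowest possible change, with CCNE2 at -3.74 against -3.75. ASF1B, CDC45 and GINS2 summed to -5.16, -4.86 and -4.86 against -5.40, -5.28 and -5.36. In these genes an additive fall had little room, and the pseudocount may have added to their interaction. In 35 of the 41 genes the cotreatment change lay between both single changes.

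The fall developed slowly. At 1 h, limma found 0 of the 41 genes lower by the adjusted p with budesonide (0.135% of tested genes), IL-1β (0.45% of tested genes) or cotreatment (0.473% of tested genes), and at an unadjusted p under 0.05 there were 0, 0 and 2. At 2 h, budesonide gave 0 (1.59% of tested genes) and 1 unadjusted, while IL-1β gave 4 (7.59% of tested genes) and cotreatment 4 (6.78% of tested genes), shares of the 41 genes near those of all tested genes. The same genes made up both groups of 4, namely CDT1, CCNE1, UHRF1 and ORC1. CDT1 changed most, by -0.84 ± 0.18 with IL-1β (adjusted p = 0.00019) and by -0.64 with cotreatment (adjusted p = 0.0056). RFC2 rose by 0.51 ± 0.12 with IL-1β at 2 h (adjusted p = 0.00072), the only member higher by the adjusted p in a comparison with NS.

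At 6 h the changes were still small. By the adjusted p, 19 genes were lower with budesonide (6.65% of tested genes), 24 with IL-1β (25.5% of tested genes) and 32 with cotreatment (15.4% of tested genes). The IL-1β share of the members was thus nearer to that of all genes than the other shares were. The largest budesonide changes at 6 h were those of CDC6 at -0.88, UHRF1 at -0.76 and MCM6 at -0.70, and cotreatment led with MCM6 at -0.93, UHRF1 at -0.93 and PRIM1 at -0.91. The budesonide count was 12 without NS 6 h replicate 1, 2 or 4.

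CDT1 was the first member called, at 6 h with IL-1β (-1.07 ± 0.19, adjusted p = 3.4e-06), where 4.81% of tested genes were called lower. It stood at 18.1, 19.0 and 20.2 TPM in the 3 NS libraries at 6 h, at 11.1, 10.8, 7.60 and 6.59 TPM with IL-1β, and at 17.8, 18.4, 13.6 and 17.2 TPM with budesonide. The IL-1β libraries lay below all others of these groups. Without IL-1β 6 h replicate 4 the change missed the limit and 0 members were called, and without IL-1β 6 h replicate 1, 2 members were. At 12 h CDT1 was higher with budesonide than with IL-1β, by 0.79 ± 0.18 (adjusted p = 0.00014), the opposite order to 24 h, when it stood at 2.93 ± 0.98 TPM with budesonide and 4.72 ± 0.72 TPM with IL-1β (SD, n = 4).

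By 12 h budesonide called 32 genes lower (2.6% of tested genes), with a median of -1.30, cotreatment 27 (3.46% of tested genes), with a median of -1.18, and IL-1β 13 (3.08% of tested genes), with a median of -0.87. By the adjusted p alone IL-1β lowered 40 genes (20.8% of tested genes), and its 12 h libraries lay below all NS libraries in 40 genes. The latter separation was not counted over all tested genes. CDC6 led budesonide at -2.41 ± 0.14, then MCM10 at -2.09, E2F1 at -1.92, CLSPN at -1.83, UHRF1 at -1.78, MCM6 at -1.74, GINS2 at -1.70 and EXO1 at -1.68. Cotreatment also began with CDC6, MCM10 and E2F1, at -2.11, -2.05 and -1.87, then CCNE2 at -1.80, CLSPN at -1.73, UHRF1 at -1.54, MCM5 at -1.53 and GINS2 at -1.52.

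The IL-1β calls at 12 h began with the licensing factor CDT1 at -1.55 ± 0.18, E2F2 at -1.40 and E2F1 at -1.35, followed by MCM2 at -1.26, MCM10 at -1.23, CHAF1B at -1.20, EXO1 at -1.18 and CHAF1A at -1.17. Without IL-1β 12 h replicate 4 the count was 8. Budesonide against IL-1β at 12 h called CDC6 and GINS4 lower, at -1.58 and -1.38 (2 genes, 5.61% of tested genes), and 26 genes passed the adjusted p (22.2% of tested genes). The same pair was called lower by cotreatment against IL-1β, at -1.28 and -1.15 (3.53% of tested genes), and 18 genes passed the adjusted p (17% of tested genes). These counts of 2 became 4 without IL-1β 12 h replicate 4 for budesonide, and for cotreatment 4 and 1 without its 12 h replicates 1 and 2, while the count of 18 became 11 without IL-1β 12 h replicate 2 and 2 in a fit on the compared groups alone.

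Cotreatment differed from budesonide at 12 h by the adjusted p in 1 gene, PCNA, which was 0.30 ± 0.07 higher (5.06% of tested genes). With the replicate number as a block the count was 2, and without budesonide 12 h replicate 2 or cotreatment 12 h replicate 4 it was 3 or 4, while a fit on the compared groups alone left 0 genes. The interaction at 12 h was called in 20 genes (1.28% of tested genes), led by E2F2 at 1.52 ± 0.20 and E2F1 at 1.39 ± 0.18, then MCM6 at 1.38, MCM2 at 1.37, EXO1 at 1.37, CDT1 at 1.34, GINS2 at 1.34 and CHAF1A at 1.30. For E2F2 the single changes summed to -2.89, below the -2.52 that a level of 0 TPM would give at its mean in NS cells, so part of its interaction was fixed by the pseudocount. At 6 h it passed the adjusted p in UHRF1 (0.68) and E2F2 (0.60), 2 genes (4.52% of tested genes), and in 1 of them when any 1 of 12 libraries was left out.

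**Figure D4:**
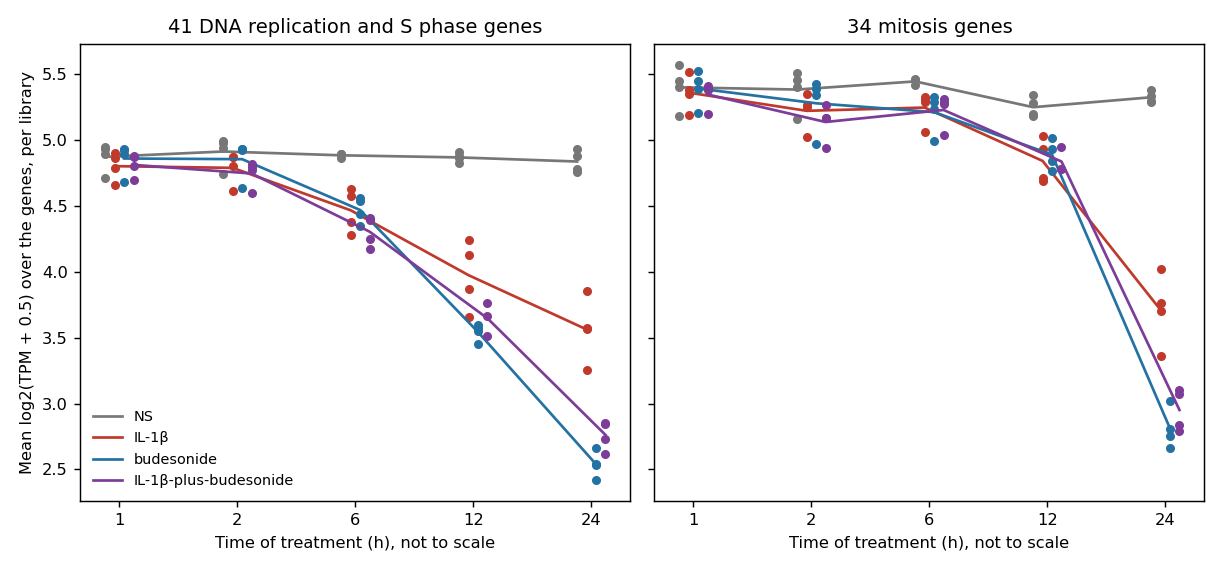
Mean log2(TPM + 0.5) in each library (points) and group mean (lines) by time and treatment, over the 41 replication and S phase genes (left) and over 34 mitosis genes (right). Replication genes fell from 6 h onward and at 12 h the budesonide libraries lay between 3.45 and 3.60 against 4.82 to 4.91 in NS. The mitosis genes at 12 h lay between 5.18 and 5.34 in NS. They lay lower with budesonide (4.77 to 5.01), IL-1β (4.69 to 5.03) and cotreatment (4.78 to 4.95). In treated cells they fell further by 24 h.

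Genes of the pathway differed in how much of the 24 h change was present at 12 h. Under budesonide the 12 h change was 62.4% of the 24 h change in the median gene. In MCM6 the share was 83.5%, in POLD1 80.4% and in MCM3 79.97%, whereas it was 27.7% in TK1 and 29.7% in RRM2. By role, deoxynucleotide supply had the lowest median share, at 36.9%, and the S phase entry regulators the highest, at 68.7%.

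The budesonide response grew further between 12 and 24 h in 18 genes by the call (1.66% of tested genes) and in 29 by the adjusted p (3.37% of tested genes). RRM2 led, with a further fall of -2.15 ± 0.31, then TK1 at -2.11, ASF1B at -1.97, CDC45 at -1.90, GINS2 at -1.51, CDC6 at -1.44, EXO1 at -1.43 and GINS1 at -1.40. Under cotreatment 12 genes were called (1.46% of tested genes) and 25 passed the adjusted p (3.3% of tested genes), led by TK1 at -2.02, RRM2 at -1.89, ASF1B at -1.88, GINS2 at -1.41, EXO1 at -1.35, GINS1 at -1.32, GINS4 at -1.32 and TYMS at -1.26. Under IL-1β, RRM2 was the 1 gene called, at -1.43 ± 0.31 (0.908% of tested genes), and 7 genes passed the adjusted p (2.3% of tested genes). With the replicate number as a block this count of 7 was 11, and without IL-1β 24 h replicate 1 it was 12 and the count of calls 2, as it also was without IL-1β 12 h replicate 4. In a fit on the compared groups alone, 0 genes were called, RRM2 included, and 1 passed the adjusted p.

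The 56 other genes of replication and S phase were called in part. Budesonide at 24 h called 30 of the 56 lower (5.7% of tested genes) and 0 higher, with a median of -1.14. IL-1β called 19 lower (4.31% of tested genes), with a median of -0.64. Cotreatment called 27 of them lower (5.73% of tested genes), with a median of -0.97. At 12 h, 14 were called lower with budesonide (2.6% of tested genes), 6 with IL-1β (3.08%) and 15 with cotreatment (3.46%). The IL-1β count was 10 without IL-1β 12 h replicate 1 and 1 without IL-1β 12 h replicate 3. Of the 56, 1 gene, SAMHD1, which degrades deoxynucleotides, was called higher with IL-1β at 12 h, from 8.43 to 28.1 TPM (1.60 ± 0.17, adjusted p = 3.8e-12), and was named after its value was seen. At 24 h SAMHD1 stood at 9.05 TPM with IL-1β against 9.10 TPM in NS cells (-0.02, adjusted p = 0.95). Large budesonide changes at 24 h were those of the repressor E2F8 at -2.71 ± 0.16 and cyclin A2 (CCNA2) at -2.69 ± 0.12. At the other end POLD4, RBL2 and TOP1 read 0.21, 0.14 and 0.09, with adjusted p of 0.17, 0.52 and 0.48. With IL-1β at 24 h, E2F8, CCNA2 and the origin firing factor TICRR changed most, by -1.93, -1.90 and -1.59. POLD4 rose by 0.34 (adjusted p = 0.023), while TOP1 and ORC4 did not pass. At 12 h the IL-1β change was -0.31 for POLD4 (adjusted p = 0.037), 0.40 for TOP1 (adjusted p = 0.00050) and 0.19 for ORC4 (adjusted p = 0.27). With cotreatment at 24 h CCNA2 and E2F8 changed by -2.60 and -2.49. The difference between the lists was not tested.

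Mitosis genes were mostly called at 24 h and not at 12 h. At 12 h budesonide called 1 of 34 mitosis genes lower, with a median of -0.34, beside 32 of the 41 replication genes (2.6% of tested genes). Cotreatment likewise called 1 of the 34 (3.46% of tested genes). This count was 2 with the replicate number as a block and 0 without the 5 libraries that stood apart. IL-1β called 0 by limma (3.08% of tested genes). At an unadjusted p under 0.05 there were 24 with IL-1β, for which no share of all tested genes was taken. At 24 h budesonide called 33 of the 34 (5.7% of tested genes), with a median of -2.54. The changes ran from -3.28 for the kinase CDK1 to -0.60 for BUB3. IL-1β called 31 of the mitosis genes at 24 h (4.31% of tested genes), with a median of -1.65. The difference in timing between the lists was not tested.

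Among 12 inhibitors of cyclin-dependent kinases, D-type cyclins and their partners, 9 were tested. CDKN1C, an inhibitor of G1 kinases, was the gene with the largest change, from 0.836 TPM in NS cells to 24.6 TPM with budesonide at 24 h (4.23 ± 0.19, adjusted p = 4.3e-29). It had risen by 4.01 at 12 h, and at 24 h it rose by 3.21 with cotreatment and read -0.62 with IL-1β (adjusted p = 0.0060). CDKN1A, another inhibitor, rose by 1.03 with budesonide at 24 h and by 0.74 with IL-1β, which was below the limit for a call. CDKN2C was called lower with IL-1β, by -1.81, and not with budesonide (0.08, adjusted p = 0.62). Their part in the changes of the replication genes was not tested.

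The labelled treatments and cell type were visible in the values. From 2 h on, the cytokine target CXCL8 stood at 693 to 1610 TPM in IL-1β libraries and at 1.31 to 4.21 TPM in NS, and the glucocorticoid target FKBP5 at 29.5 TPM or more in budesonide libraries and at 9.51 TPM or less in NS. Keratin genes KRT7, KRT8 and KRT18 exceeded 791 TPM in all 78 libraries. Of the immune markers, CD3E was listed at 0 in all and the leukocyte gene PTPRC did not exceed 0.71 TPM. CD14 and ITGAM, however, rose to 6.25 and 8.53 TPM and reached 1 TPM in 55 libraries each. Summed fibroblast markers stood at 4.15 to 25.3 TPM, with COL1A1 at 2.19 to 17.7 TPM, and summed endothelial markers did not exceed 2.08 TPM. The summed level of 7 epithelial markers at 24 h was 14549 to 17862 TPM with budesonide against 5174 to 6626 TPM in NS, and the mitochondrial share 15.5 to 17.2% against 14.5 to 16.0%. The summed immune markers stood at 8.59 to 10.7 TPM with IL-1β at 24 h against 1.60 to 3.00 TPM in NS. The part of any of these in the changes of the replication genes was not tested. In 8 reference genes the budesonide changes at 24 h lay between -0.52 and 0.47, while B2M, a part of the class I antigen complex, was called higher with IL-1β (1.69) and with cotreatment (1.09) and the other 7 were not called. Of the 78 libraries, 5 stood apart from their groups, and the calls at 24 h against NS without them were 41 of 41 for budesonide and for cotreatment and 32 for IL-1β.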

How the data were processed

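RNA was measured by stranded poly(A) sequencing of 78 A549 libraries in 20 groups, grouped by GEO's labels. The authors quantified transcripts with kallisto against the GRCh38 (hg38) transcriptome and rescaled libraries with sleuth (versions not given in the sources used here), so the deposited signal is TPM per gene whose sums per library lie between 812680 and 1009500. The authors' own comparisons (fold changes, p- and q-values) were not used, nor was 1 library, NS 6 h number 3, which has values in the table and no listed sample. Genes that reached 1 TPM in 3 or more libraries (13327, with 6325 removed) were fitted as log2(TPM + 0.5) with limma 3.58.1 (trend) in R 4.3.3, with 1 mean per group, 58 residual degrees of freedom and Benjamini-Hochberg adjustment over all tested genes in each comparison. For the interaction, both single-treatment changes were subtracted from the change under cotreatment. The procedure was tested on simulated data. Errors are SE for log2 changes and SD for TPM.

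The genes and the comparison lists were chosen with earlier results of these data known. Each library's value is given for the gene with the largest budesonide change at 24 h in each of 8 roles. For IL-1β at 24 h, the 5 largest and 5 smallest changes are named, in other comparisons up to 8 called genes, and of the other replication genes the 3 at each end, of which 1 is not reported here. Values of CDT1, CCNE1 and PCNA were added after they were seen. Libraries with the same replicate number deviated together, with every pair's correlation above 0.1 in 27 of 30 comparisons. The deviation of 77 of the 78 libraries correlated best with libraries of its own number. The number is thus a strong hint of shared experiments, which the labels do not state. The main fit did not use this pairing, and a block on the number is among the alternatives. Alternatives were the pseudocount, the filter, scaling, a replicate block, array weights, a fit on the compared groups alone, and leaving out libraries.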

Additional observations from a re-analysis of the deposited data

Results flagged for a closer look

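Among groups of 4 libraries, the mean log2 level of the 41 replication genes had 1 library far from the other 3 in 2 of 18 groups, by Dixon's test, which chance gives in about 1 in 20 groups. Budesonide 1 h replicate 3 stood at 4.68 against 4.89 to 4.93, and budesonide 2 h replicate 3 at 4.63 against 4.92 to 4.93. Among the 8 leading genes at 24 h, 3 of 32 groups had such a library. CDC6 stood at 44.7 TPM in NS replicate 4 against 53.1 to 54.3 TPM, RFC3 at 4.37 TPM in budesonide replicate 2 against 3.22 to 3.39 TPM, and EXO1 at 15.4 TPM in NS replicate 3 against 19.0 to 19.3 TPM.

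The response against NS differed between 12 and 24 h, tested as the difference of both responses in limma. It was called lower at 24 h in 18 of the 41 genes with budesonide (1.66% of tested genes) and in 12 with cotreatment (1.46% of tested genes). With IL-1β it was called lower in 1 gene (0.908% of tested genes).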

How the results depend on the processing

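Of 2186 values under alternatives for 114 results, 0 reversed and 2095 kept their direction and side of the limit (counts within 1.5 times), and among the values of single genes 1055 of 1072 did. All counts against NS at 24 h did so under every alternative. The others concern small counts at 12 h or earlier and the weaker comparisons, and the cause was not tested. With a pseudocount of 0.1, the calls with IL-1β at 6 h were 2, the interaction at 6 h passed the adjusted p in 1 gene, and NS at 24 h against 1 h in 0, which was also the NS count without a filter and with median-of-ratios scaling. A mean of at least 5 TPM gave 1 gene for that interaction, and quantile normalization 1 call for cotreatment at 6 h. With array weights, the counts were 0 calls with IL-1β at 6 h, 7 genes by the adjusted p with IL-1β at 2 h, 30 with budesonide at 6 h, 1 call for cotreatment against IL-1β at 12 h, 2 genes for cotreatment against budesonide at 12 h, 5 for the interaction at 6 h, 3 for NS at 24 h against 1 h and 2 calls for the IL-1β response between 12 and 24 h. A fit on the compared groups alone gave 7 genes with IL-1β at 2 h, 2 by the adjusted p for cotreatment against IL-1β at 12 h, 0 for cotreatment against budesonide at 12 h, 2 for NS at 24 h against 1 h, and 0 calls and 1 gene by the adjusted p for the IL-1β response. Without the 5 libraries that stood apart, cotreatment against IL-1β at 12 h had 1 call. With the replicate number as a block, the adjusted p passed in 2 genes for cotreatment against budesonide at 12 h and 11 for the IL-1β response, cotreatment at 12 h called 2 mitosis genes, and no other count of the 41 genes moved by over 1.5 times.

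Leaving out single libraries gave ranges of 0 to 2 calls for IL-1β and for cotreatment at 6 h, 8 to 19 for IL-1β at 12 h, 1 to 4 for cotreatment and 2 to 4 for budesonide against IL-1β at 12 h, and 1 to 2 for the IL-1β response. By the adjusted p, the ranges were 12 to 18 genes for budesonide at 6 h, 11 to 20 for cotreatment against IL-1β at 12 h, 1 to 4 and 5 to 11 for cotreatment against budesonide at 12 and 24 h, 1 to 2 for the interaction at 6 h, 0 to 1 for NS at 24 h against 1 h and 5 to 12 for the IL-1β response. Without cotreatment 6 h replicate 1 the cotreatment count at 6 h was 2, and without replicate 2 it was 1. The reads behind each value are unknown, so no counting interval could be given.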
